A study of Mus musculus with 2 samples.

Results

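Non-myelinating Schwann cells of the dorsal root ganglion (DRG) were described in 2 single-cell RNA-seq samples, in which 1050 of 16882 barcodes that passed the quality limits were assigned to this type. The cells were chosen by their own expression: each had over 300 detected genes, at least 1000 UMIs (molecules counted once), up to 22% mitochondrial UMIs, at least 2 UMIs of *Scn7a*, a sum of *Scn7a* and *L1cam* of at least 5 per 10,000 UMIs, *Fabp7* under 60 per 10,000 UMIs, and at most 1 UMI each of *Ncmap*, *Isl1*, *Prph*, *Pdgfra*, *Rgs5*, *C1qa* and *Flt1*. Replicate 1 held 483 such cells among 8366 barcodes (5.77%, exact binomial 95% interval 5.28 to 6.29), and replicate 2 held 567 among 8516 (6.66%, interval 6.14 to 7.21). No barcode fell in more than 1 of the 8 cell type gates, many fell in none, and the 2 samples shared no barcode among these cells. Both samples were L4 and L5 DRGs of naive C57BL/6 female mice at 3 months of age, enzymatically dissociated, sorted for live single cells and captured with 10x Genomics 3′ chemistry. No animal carried a transgene or treatment according to the labels, and neither the labels nor the methods say how many mice went into a sample, so the spread between the samples may be partly technical.

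Non-myelinating, or Remak, Schwann cells ensheathe bundles of small-diameter sensory and sympathetic axons without forming myelin, and keep each axon apart in its own trough of cytoplasm. They arise from the same neural crest precursors as myelinating Schwann cells and the satellite glial cells (SGCs) that wrap sensory neuron somata. They are known for adhesion molecules of the L1 family and for expression of the low-affinity neurotrophin receptor, and after nerve injury they contribute to repair.

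The cells were compared with myelinating Schwann cells (1401 and 1463 cells, gated on *Ncmap*) and with SGCs (2496 and 2545 cells, gated on *Fabp7*) of the same samples. Both of these gates also allowed at most 1 UMI of *Scn7a*, and the SGC gate at most 1 UMI of *Pou3f1*. Cells rich in *Fabp7* but with more *Pou3f1* are thus not among the SGCs compared. Counts were summed per sample and type into profiles, and levels are given below as CPM (UMI counts relative to library size, with the library sizes adjusted by the trimmed mean of M-values), replicate 1 before replicate 2; where a value is called unscaled CPM, the library size was used without that adjustment. The median depth per non-myelinating cell was 5234 and 5673 UMIs, near that of myelinating Schwann cells (5469 and 5930), whereas SGCs had 15880.5 and 16597. The median mitochondrial share was lower, at 4.33% and 3.84%, against 9.03% and 7.99% in myelinating Schwann cells and 8.67% and 7.98% in SGCs. The gate narrowed mainly at its first 2 steps: the limit on *Scn7a* alone left 813 and 995 barcodes, the limit on the *Scn7a* and *L1cam* sum left 586 and 690, and the remaining limits brought these to 483 and 567.

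The label was set beside 5 markers of non-myelinating Schwann cells. The first 2 were used by the gate. *Scn7a*, a sodium channel family member that is not gated by voltage in the usual way, stood at 2302 and 2473 CPM, and *L1cam* (an immunoglobulin-family axon adhesion molecule on chromosome X) at 211 and 216. The other 3 were not part of the gate, but they were chosen with results of these data known, so they are no independent check of the label. *Cadm2*, a synaptic cell adhesion molecule (GRCm38 chromosome 16, 66655421 to 67620908, minus strand), reached 2488 and 2719 CPM, against 141 and 143 in myelinating Schwann cells, 69.3 and 70.4 in SGCs and 291 and 236 in neurons. *Chl1*, a close homolog of *L1cam* (chromosome 6, 103510586 to 103750211, plus strand), was at 1665 and 1467 CPM, against 91.2 and 101 in myelinating Schwann cells and 474 and 414 in SGCs. *Ntrk3*, the receptor for neurotrophin-3 (chromosome 7, 78175959 to 78738012, minus strand), was at 458 and 512 CPM, against 3.15 and 3.97 in myelinating Schwann cells and 0.986 and 2.03 in SGCs, with 137 and 189 in fibroblasts and 109 and 106 in neurons. All 3 were thus highest in the gated cells among the 8 types in both samples.

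**Figure D1:**
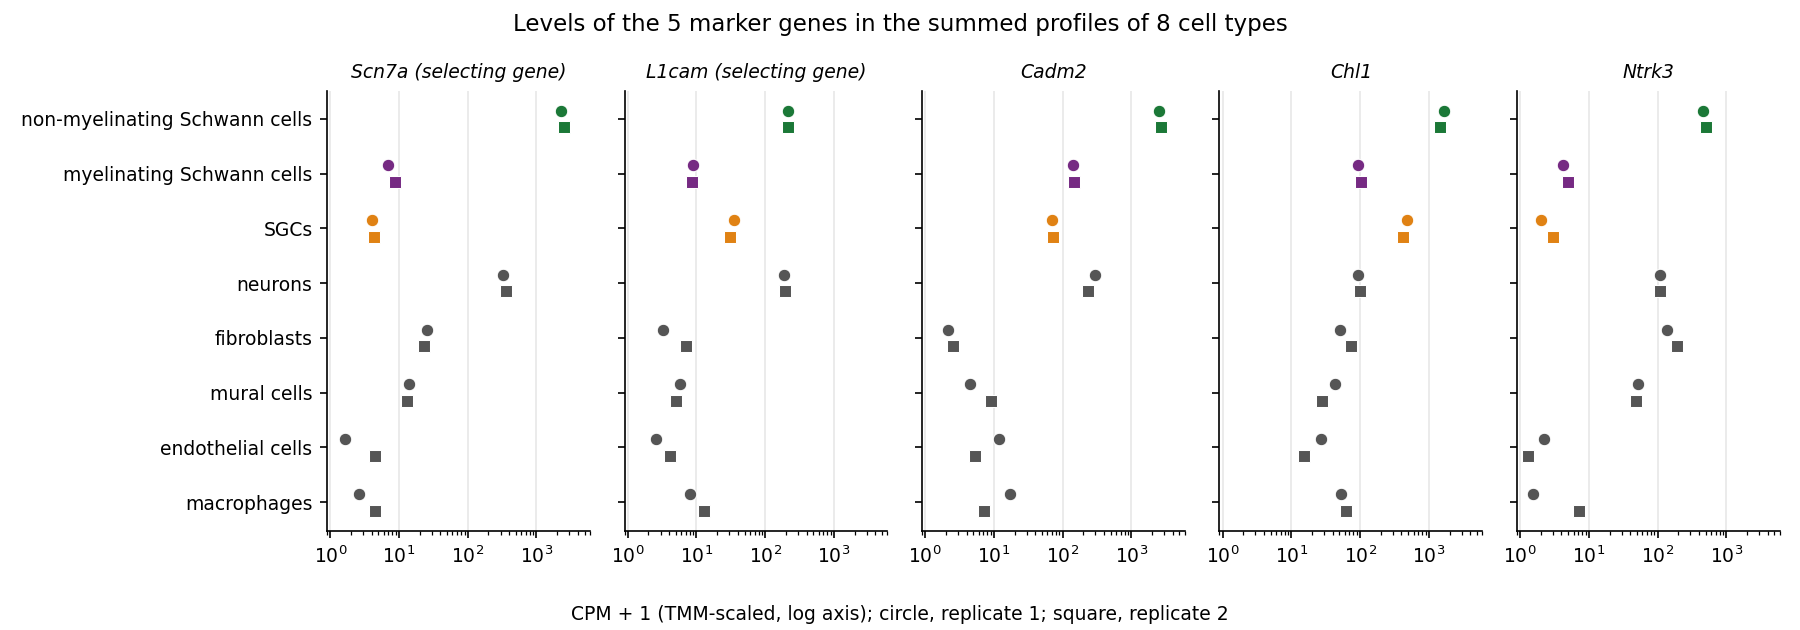
Levels of marker genes (CPM, log axis) in the 8 gated cell types; each point is 1 sample, circles replicate 1 and squares replicate 2. The non-myelinating Schwann cells sit highest for *Cadm2*, *Chl1* and *Ntrk3*, which the gate did not use, and the 2 samples lie close together.

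Single gated cells carried these markers too. With each cell thinned to 1000 UMIs, *Cadm2* was found in 80.1% and 78.8% of them (92.1% and 94.0% before thinning), against 8.64% and 10.8% of myelinating Schwann cells, 5.49% and 5.62% of SGCs and 0% and 0.455% of fibroblasts, a type that should lack it; 0 of 178 thinned fibroblasts allows up to 1.69% of them to carry a UMI at that depth, which does not bound expression, and before thinning 1.69% and 1.82% of fibroblasts held a UMI. *Ntrk3* was found in 38.3% and 35.3% of thinned cells (66.0% and 72.1% before thinning), against 0.120% and 0.157% of SGCs. Intervals and limits of this kind cover counting error only. Markers of other types stood at a median of 4.58% and 6.82% of their level in empty droplets, close to myelinating Schwann cells (7.34% and 5.96%) and above SGCs (2.94% and 2.73%).

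The cells at the edges of the gate graded into their surroundings. The 14 and 18 cells with exactly 2 *Scn7a* UMIs held *Cadm2* at 673 and 1106 unscaled CPM, and the 11 and 13 barcodes kept out only for having 1 *Scn7a* UMI held it at 377 and 1028. The 5 and 12 cells with *Fabp7* between 50 and 60 per 10,000 held *Cadm2* at 415 and 1070 unscaled CPM, and the 5 and 7 barcodes just outside, between 60 and 70, held it at 933 and 1787. In value, *Cadm2* was no lower just beyond the *Fabp7* limit than just inside it, and *Chl1* and *Ntrk3* were lower beyond it in both samples. With 5 and 12 cells inside and 5 and 7 barcodes outside, these values give no firm direction. In replicate 1 *Ntrk3* rests on a few UMIs on either side. *Chl1* was at 2105 and 1120 unscaled CPM inside and 1565 and 1032 outside. *Ntrk3* was at 88.9 and 185 inside and 60.2 and 146 outside. Of the barcodes that passed every other limit, the limit on *Fabp7* kept out 27 and 34.

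A few gated cells went against the label. *Dcn* (decorin, a matrix proteoglycan typical of fibroblasts) reached at least 20 per 10,000 UMIs in 10 and 11 of them, and these held 96.9% and 93.0% of all *Dcn* UMIs. They had *Sox10* at 25.9 and 38.9 unscaled CPM, against 407 and 355 in the other members, and *Lum* at 4408 and 2431 against 8.12 and 15.1. *Scn7a*, which the gate required of them, was at 853 and 1196 unscaled CPM, and *Ntrk3*, which fibroblasts also express, at 259 and 224. The comparisons were repeated without them, an alternative added after the data were seen that leaves 473 and 556 cells, and its values are given below where they move a result.

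A single fit of 17200 genes over 16 profiles (2 samples by 8 types) by edgeR's quasi-likelihood test gave the 2 comparisons below, with Benjamini-Hochberg adjustment over all genes and a threshold of 0.05; errors are the standard errors (SE) of log2 fold changes, with 2 samples a type. Both comparisons use the same non-myelinating profiles. All types were picked by expression in these same cells, so the calls describe how far the gated groups differ beyond the spread between the 2 samples. Against myelinating Schwann cells 2948 genes were higher (17.1% of genes tested) and 2843 lower (16.5%). Against SGCs 2765 were higher (16.1%) and 3230 lower (18.8%). In 1351 genes (7.85%) the non-myelinating cells were higher than both, and in 1043 (6.06%) lower than both. These shares are the background for every count of list genes below, and a count near them is no result about its list. The median log2 fold change over all genes was -0.02 and -0.03. Scaling by total UMIs moved these medians to 0.11 and 0.25, and with them the share of calls that were higher from 50.9% to 65.4% against myelinating Schwann cells and from 46.1% to 72.1% against SGCs.

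Genes of the whole Schwann lineage were expressed, with *Cdh19* (a cadherin of neural crest and Schwann cell precursors) standing out. Its level was 3638 and 3700 CPM, against 541 and 492 in myelinating Schwann cells and 837 and 744 in SGCs, a log2 fold change of 2.83 ± 0.26 (SE; edgeR adjusted p = 1.1e-07) and 2.21 ± 0.25 (edgeR adjusted p = 1.7e-06). The neuregulin receptor gene *Erbb3* was also higher than both, at 322 and 325 CPM (0.83 ± 0.14 and 0.79 ± 0.14), and so was the neural crest transcription factor gene *Foxd3* (0.70 ± 0.12 and 0.95 ± 0.11). *S100b*, a calcium-binding protein widely used to stain Schwann cells, was lower, at 355 and 339 CPM against 634 and 640 and against 550.3 and 491 (-0.88 ± 0.15 and -0.58 ± 0.15). *Sox10*, which specifies peripheral glia, was at 360.4 and 312 CPM, against 307 and 298 in myelinating Schwann cells (0.15 ± 0.13, edgeR adjusted p = 0.41) and 234 and 218 in SGCs (0.57 ± 0.13). Of the 12 lineage genes, 3 were higher and 5 lower than in myelinating Schwann cells, and 6 were higher and 5 lower than in SGCs; scaling by total UMIs turned these counts to 4 and 3, and 6 and 2, leaving out replicate 1 of the non-myelinating cells to 4 and 3, and 4 and 5, and leaving out replicate 2 to 3 and 3, and 5 and 2. Against SGCs the call of *S100b* was lost under that scaling (-0.29, edgeR adjusted p = 0.14), without replicate 2 (-0.55, edgeR adjusted p = 0.057) and with RNA of empty droplets subtracted (-0.59, edgeR adjusted p = 0.17), and that of *Sox10* without replicate 1 of the non-myelinating cells (0.42, edgeR adjusted p = 0.056).

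Genes known from Remak Schwann cells separated the type from both others. Outside the gate, 12 of 13 such genes were higher than in myelinating Schwann cells and 1 was not called (median log2 fold change 3.45), and 9 were higher and 3 lower than in SGCs (median 3.21; 1 lower under DESeq2, scaling by total UMIs or either non-myelinating replicate left out); the list was drawn up with results of these data known, and it includes the markers above. *Gfra3*, the co-receptor for artemin, was at 89.4 and 130.4 CPM, against 0.210 and 0.647 in myelinating Schwann cells and 0.356 and 0.313 in SGCs, which is 242-fold and 317-fold (log2 fold changes of 7.92 and 8.31). The size of these folds rests on few UMIs in the other types: it was 7.15 and 7.70 on the log2 scale with each cell thinned to 1000 UMIs, and 12.86 in both with RNA of empty droplets subtracted. It was carried by 8.90% and 13.8% of thinned cells, and by 0.0714% and 0.0684% of thinned myelinating Schwann cells. Neurons had more, at 274 and 259 CPM. *Ngfr*, the low-affinity neurotrophin receptor, was at 29.0 and 27.5 CPM, against 2.52 and 1.02 and against 0.657 and 0.704. The growth-associated protein gene *Gap43* (29.7 and 36.9 CPM) and the intermediate filament gene *Gfap* (17.0 and 10.9 CPM) were low in level yet higher than both. *Ncam1*, the neural cell adhesion molecule, was at 1136 and 1131 CPM, above myelinating Schwann cells (286 and 295) and below SGCs (1673 and 1612). The call of *Ncam1* against SGCs was lost under DESeq2 (adjusted p = 0.14) and under scaling by total UMIs (edgeR adjusted p = 0.37). It was also lost with RNA of empty droplets subtracted (edgeR adjusted p = 0.11) and without the members rich in *Dcn* (edgeR adjusted p = 0.053). Without either non-myelinating replicate it was lost as well (log2 fold changes of -0.57 and -0.53). Of the genes outside the gate, *Col28a1*, a collagen, at 387 and 400.3 CPM against 541 and 564, and the intermediate filament gene *Vim*, at 2896 and 2880 against 4976 and 4874, were also lower than in SGCs. The call of *Col28a1* was lost under DESeq2 (adjusted p = 0.10) and under scaling by total UMIs (edgeR adjusted p = 0.33). It was also lost with RNA of empty droplets subtracted (edgeR adjusted p = 0.069) and without either non-myelinating replicate (log2 fold changes of -0.50 and -0.51).

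Beyond the lists, the 12 genes with the largest smaller fold change over both other types, at 50 CPM or more in both non-myelinating profiles, included enzymes, receptors and adhesion genes. *Aldh1a1*, a retinaldehyde dehydrogenase that makes retinoic acid, was at 64.2 and 75.02 CPM, against 0.736 and 0.185 in myelinating Schwann cells and 0.329 and 0.339 in SGCs (log2 fold changes of 7.25 ± 0.34 and 7.64 ± 0.29). The kinase gene *Stk32a* was at 161 and 146 CPM (6.14 ± 0.33 and 5.65 ± 0.27), and *Adgb*, an androglobin, at 144 and 178 (5.29 ± 0.24 and 5.52 ± 0.22). *Fndc1* was at 69.5 and 102 CPM (5.77 ± 0.36 and 7.61 ± 0.36). These 4 were higher here than in any of the 7 other types in both samples, while the other 8 were higher still in at least 1 of those types: *Acvrl1*, a receptor of the transforming growth factor family, at 51.5 and 58.0 CPM but 207 and 227 in endothelial cells; *Nrn1*, neuritin, at 162 and 236 but 436 and 507 in neurons; *Rassf4* at 51.9 and 65.1 but 203 and 180.2 in macrophages; *Igfbp7*, an insulin-like growth factor binding protein, at 406 and 408 but 3942 and 4092 in endothelial cells; and likewise *Etl4*, *Atp8b1*, *Ablim1* and *Opcml*.

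Ranking genes by how far the lower non-myelinating profile exceeded the highest profile of any of the 7 other types gave another view. Of 3331 genes at 50 CPM or more in both profiles, 250 exceeded every other profile and 51 did so by over 2 times (ratio of CPM + 1). *Stk32a* led with a ratio of 10.7, followed by *C4b*, complement component 4 (9.64, at 261 and 314 CPM), *Adgb* (9.36) and *Cadm2* (8.51). *Adam23*, a non-catalytic disintegrin that binds integrins, followed at 699 and 693 CPM (6.75), then the gate gene *Scn7a* (6.37), the guidance ligand gene *Sema3e* (6.22), *Gpnmb* (6.01), *Epb41l4b* (5.95) and *Frmd5* (5.57). These ratios carry no test.

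The 8 genes outside the lists with the largest fold change below both other types followed the mirror rule. *Mt3*, a zinc-binding metallothionein, was at 17.6 and 20.9 CPM, against 1209.5 and 1199 in myelinating Schwann cells and 579 and 590.4 in SGCs (-5.96 ± 0.22 and -4.91 ± 0.21). Before scaling, it stood at 19.4 and 23.1 unscaled CPM, no higher than the 22.1 and 33.5 that free RNA alone was estimated to give. *Dysf*, dysferlin, a membrane repair protein, was at 12.4 and 9.66 CPM, against 177 and 160.3 and against 128 and 136. *Cdh1*, E-cadherin, was at 21.9 and 21.6 CPM, against 157 and 189.95 and against 163 and 163. *Aif1l*, *Tmem229a*, *Smco3*, the lipid transporter gene *Mfsd2a* and *Folh1* completed the set, all 5 at or below 17.3 CPM.

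**Figure D2:**
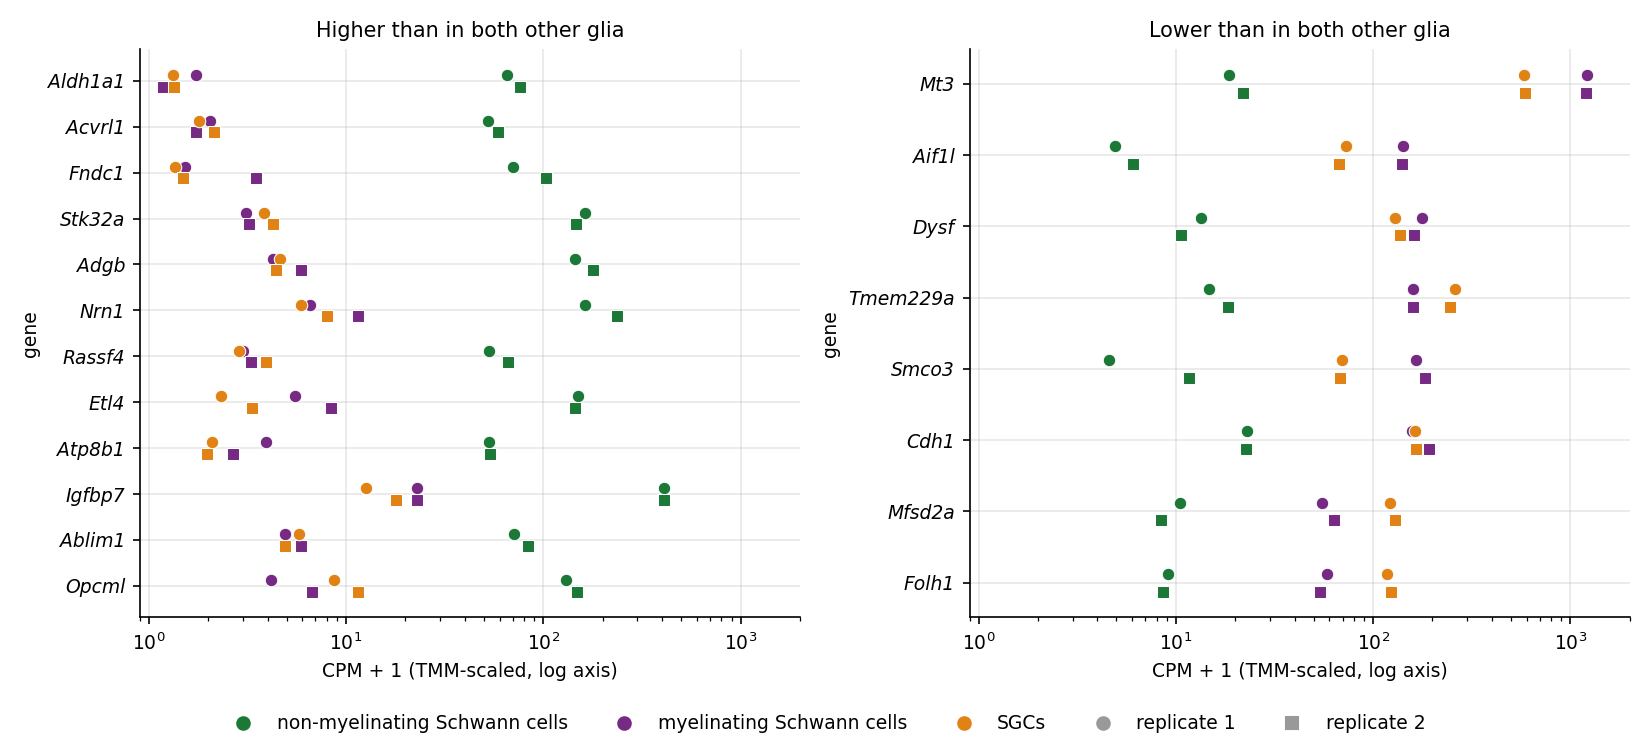
CPM (log axis) of the 12 genes higher and the 8 genes lower in non-myelinating Schwann cells than in both other glial types, by the fixed rule; each point is 1 sample and colours give the type. The non-myelinating points lie apart from those of both other types for every gene shown.

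Myelin genes split the 2 comparisons. Of 20 tested, 19 were lower and 1 higher than in myelinating Schwann cells (median log2 fold change -3.81), while 15 were higher and 4 lower than in SGCs (median 1.05). *Mbp*, myelin basic protein, was at 694 and 744 CPM, against 6458 and 6668 in myelinating Schwann cells and 347 and 362 in SGCs (-3.19 ± 0.15 and 1.02 ± 0.14); free RNA was estimated to give 57.2 and 81.9 unscaled CPM of it. The same order held for *Pmp22* (-3.14 ± 0.10 and 1.12 ± 0.09) and periaxin, *Prx* (-5.89 ± 0.17 and 1.02 ± 0.20). *Mag*, myelin-associated glycoprotein of the periaxonal membrane, was at 40.1 and 53.1 CPM, against 308 and 301 in myelinating Schwann cells and 1.42 and 1.85 in SGCs (-2.69 ± 0.14 and 4.83 ± 0.18); it was found in 4.55% and 5.29% of thinned cells, against 27.3% and 25.8% of myelinating Schwann cells and 0.20% and 0.28% of SGCs. Under a stricter guard against doublets, which limits *Mag* itself, these fold changes of *Mag* were -3.51 and 4.02. The exception was *Cadm4*, an adhesion molecule of the Schwann cell surface, at 333 and 370.5 CPM and higher than both (1.14 ± 0.15 and 1.06 ± 0.14). Against SGCs, *Prx* was not called among members held to that stricter guard (0.45, edgeR adjusted p = 0.14), but the guard limits *Prx* itself as well, so a fall was set in advance. With each cell thinned to 1000 UMIs it was not called either (0.36, edgeR adjusted p = 0.64).

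Adhesion genes of the axon and Schwann cell contact were mostly higher than in myelinating Schwann cells: 13 of 21 tested were higher and 4 lower (median 1.20), and against SGCs 9 were higher and 5 lower (median 0.61, but 0.28 without replicate 2 of the non-myelinating cells and 0.31 with RNA of empty droplets subtracted). N-cadherin, *Cdh2*, was at 298 and 372 CPM, against 29.7 and 33.3 and against 163 and 178 (3.41 ± 0.16 and 0.98 ± 0.14). *Cadm1* was at 1102 and 1014 CPM (2.02 ± 0.15 and 0.73 ± 0.15). Lower than in myelinating Schwann cells were *Nfasc*, neurofascin, at 6.85 and 12.7 CPM against 341 and 356, *Cadm3*, at 12.4 and 8.90 against 152 and 144, and *Nrcam*, at 29.4 and 26.2 against 207 and 205. Against SGCs *Nfasc* and *Cadm3* were higher (3.10 ± 0.28 and 2.46 ± 0.22), and *Nrcam* was lower (94.3 and 103 CPM there). *Cntn1*, contactin 1, was at 10.1 and 23.1 CPM against 149 and 155 in SGCs (-3.14 ± 0.22, and -3.90 without replicate 2 of the non-myelinating cells). *Nlgn3*, a neuroligin, was at 86.8 and 105 CPM, above myelinating Schwann cells (3.16 ± 0.14), and was not called against SGCs (0.24 ± 0.11, edgeR adjusted p = 0.11); it was called higher under scaling by total UMIs (0.53, edgeR adjusted p = 0.00099) and with only the 3 glial types in the fit (0.28, edgeR adjusted p = 0.014).

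Among neurotrophic factors and their receptors, the 3 with the largest fold changes over both types, *Ntrk3*, *Gfra3* and *Ngfr*, encode receptors. Of 20 genes tested, 8 were higher and 4 lower than in myelinating Schwann cells (median 0.35), and 7 were higher and 3 lower than in SGCs (median 0.34). Without replicate 2 of the non-myelinating cells these medians were 0.04 and -0.06, and with RNA of empty droplets subtracted 0.20 and 0.09; without the members rich in *Dcn*, 5 were higher and 3 lower than in SGCs (median 0.22). The neurturin co-receptor *Gfra2* was at 60.01 and 68.1 CPM, higher than in myelinating Schwann cells (2.26 ± 0.18). The GDNF co-receptor *Gfra1* was the reverse, at 30.3 and 22.4 CPM against 584 and 567 (-4.46 ± 0.14). *Ntrk2*, the receptor for brain-derived neurotrophic factor, was at 253 and 276 CPM, between myelinating Schwann cells (125 and 135) and SGCs (706 and 724). Among ligands, *Cntf*, ciliary neurotrophic factor, was at 112 and 113 CPM, 4.65 ± 0.20 above SGCs on the log2 scale. Against myelinating Schwann cells it was called lower. That call was lost under several alternatives, among them DESeq2 (-0.43, adjusted p = 0.19) and scaling by total UMIs (-0.31, edgeR adjusted p = 0.19). *Ntf5*, *Gdnf*, *Artn*, *Pspn* and *Lif* had too few UMIs in any type to be tested.

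Among neuregulin and G protein-coupled receptor genes, 8 of 13 were higher and 2 lower than in myelinating Schwann cells, and 6 were higher and 4 lower than in SGCs; without the members rich in *Dcn* the former count was 7 and 2. *Adgrg6*, an adhesion receptor needed for myelination, was higher than both at 339 and 375 CPM (1.29 ± 0.12 and 0.31 ± 0.12). So was *Prnp*, the prion protein, a ligand of that receptor, at 1229 and 1311 CPM (1.60 ± 0.09 and 0.52 ± 0.09). *Erbb4* was lower than both, at 8.81 and 9.92 CPM against 69.0 and 106 and against 47.6 and 46.7. *Lpar1*, a receptor for lysophosphatidic acid, was at 772 and 718 CPM, above myelinating Schwann cells (1.20 ± 0.20) and below SGCs (-0.76 ± 0.19). The latter call was lost under scaling by total UMIs (-0.47, edgeR adjusted p = 0.066). That of *Adgrg6* against SGCs was lost without a filter on low counts (0.19, edgeR adjusted p = 0.26) and with RNA of empty droplets subtracted (0.37, edgeR adjusted p = 0.055). Stricter gates on *Scn7a* (0.30, edgeR adjusted p = 0.057) and *Fabp7* (0.30, edgeR adjusted p = 0.052) lost it too. The calls against SGCs of *Adgrg6* (0.35 and 0.24 without replicate 1 and replicate 2, edgeR adjusted p = 0.090 and 0.28) and *Lpar1* (-0.71 without replicate 2, edgeR adjusted p = 0.057) were lost when a non-myelinating replicate was left out; against SGCs 3 genes of the list were higher and 2 lower without replicate 2 (median -0.24, from 0.31), and 3 higher and 6 lower without a filter on low counts.

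**Figure D3:**
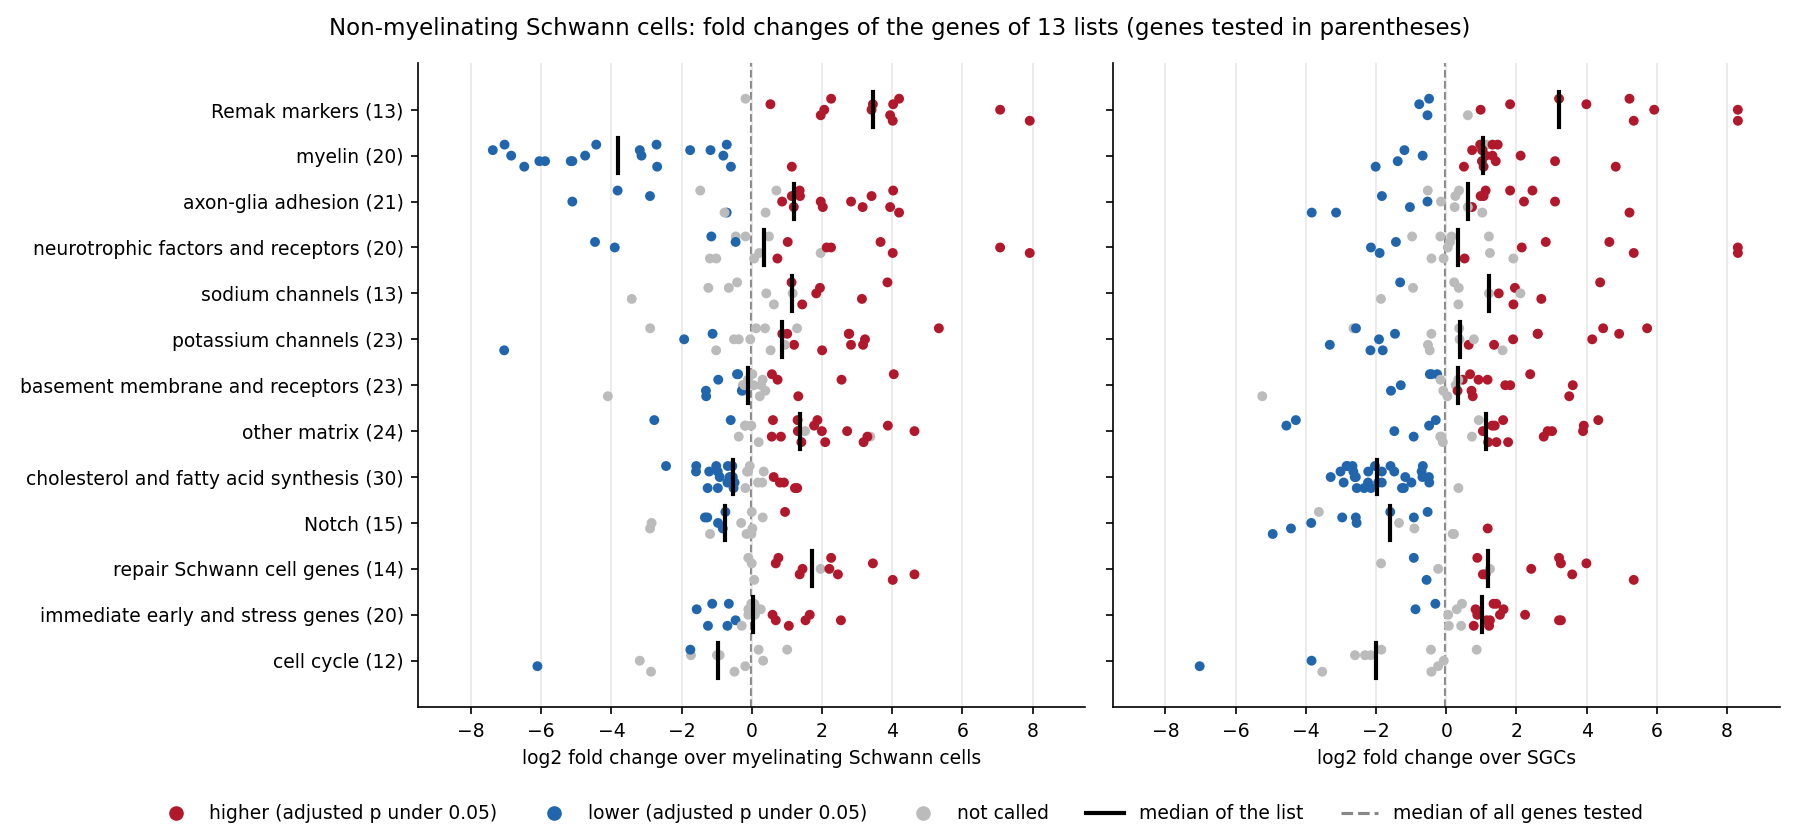
Log2 fold changes of the genes of 13 lists in non-myelinating Schwann cells over myelinating Schwann cells (left) and over SGCs (right); each point is 1 gene, red if higher and blue if lower at an adjusted p under 0.05, the bar is the list's median and the dashed line the median of all genes tested. Most Remak genes lie to the right in both panels, most myelin genes change side between the panels, and the lipid synthesis genes lie to the left, most of all against SGCs.

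Of 13 sodium channel genes outside the gate, 6 were higher than in myelinating Schwann cells and 7 not called, and 5 were higher and 1 lower than in SGCs; without the members rich in *Dcn*, 5 were higher than in myelinating Schwann cells, and 3 were higher and 1 lower than in SGCs, as also without replicate 1 of the non-myelinating cells. *Scn9a*, which encodes the channel Nav1.7 and lies beside *Scn7a* on chromosome 2, was at 15.0 and 25.9 CPM, against 0.526 and 2.22 and against 0.986 and 0.991 (3.87 ± 0.36 and 4.38 ± 0.31). These fold changes were 2.65 and 3.50 with each cell thinned to 1000 UMIs, and 10.35 and 8.19 with RNA of empty droplets subtracted. Among 23 potassium channel genes, 10 were higher and 3 lower than in myelinating Schwann cells, and 9 were higher and 6 lower than in SGCs. Without either non-myelinating replicate the count against SGCs was 6 higher and 5 lower, and the median against SGCs, 0.38, was -0.44 without replicate 2. *Kcnq5*, an M-current subunit, was at 317 and 254 CPM, against 6.31 and 7.76 and against 5.37 and 5.399 (5.33 ± 0.23 and 5.72 ± 0.22), and mural cells had 317 and 196. *Kcna1* was shared with myelinating Schwann cells, at 1418 and 1495 CPM against 1312 and 1358 there (0.13 ± 0.19, edgeR adjusted p = 0.67) and 64.3 and 67.2 in SGCs. *Kcna6* was higher than both, at 378 and 357 CPM (3.23 ± 0.12 and 1.90 ± 0.11), and the leak channel gene *Kcnk1* lower than both, at 1.30 and 1.02 CPM (-7.05 ± 0.33 and -2.16 ± 0.54). The inward rectifier of SGCs, *Kcnj10*, was at 89.4 and 97.1 CPM, between the other types (46.4 and 46.4, and 262 and 252). Without replicate 2 of the non-myelinating cells the call of *Kcnk1* against SGCs was lost (-1.97, edgeR adjusted p = 0.081), as also with each cell thinned to 1000 UMIs (-0.18, edgeR adjusted p = 0.91).

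Of 24 genes of transmitter uptake and reception, 11 were higher and 4 lower than in myelinating Schwann cells, and 6 were higher and 10 lower than in SGCs (3 and 11 without replicate 2 of the non-myelinating cells, 4 and 9 with RNA of empty droplets subtracted). *Grik2*, a kainate receptor subunit, was at 1980 and 2065 CPM, against 385 and 441 and against 890.4 and 955 (2.29 ± 0.19 and 1.13 ± 0.18), and the AMPA receptor subunit gene *Gria3* was at 248 and 262 (1.09 ± 0.16 and 0.60 ± 0.16). *Slc1a3*, the glutamate transporter, was at 12.1 and 17.0 CPM, against 56.8 and 55.4 and against 148 and 139 (-1.92 ± 0.20 and -3.28 ± 0.19); without the members rich in *Dcn* its unscaled CPM fell from 13.3 and 18.9 to 5.17 and 13.6 (log2 fold changes of -2.65 and -4.003). *Glul*, glutamine synthetase, was at 73.7 and 52.4 CPM, against 116 and 125 and against 486 and 469 (-0.94 ± 0.14 and -2.93 ± 0.14). The call of *Gria3* against SGCs was lost without replicate 2 of the non-myelinating cells (0.56, edgeR adjusted p = 0.057).

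Extracellular matrix genes were tested as 2 lists. Of 23 genes of the basement membrane and its receptors, 5 were higher and 6 lower than in myelinating Schwann cells, and 12 were higher and 5 lower than in SGCs; under scaling by total UMIs these counts became 9 and 3, and 15 and 2. *Nid2*, nidogen 2, was at 139.9 and 149 CPM, against 26.0 and 23.2 and against 63.6 and 64.4 (2.56 ± 0.13 and 1.18 ± 0.12), while *Nid1* was at 162 and 182 CPM against 173 and 168 in myelinating Schwann cells (0.02 ± 0.09). Collagen-binding integrin α1, *Itga1*, was at 352 and 307 CPM, against 21.1 and 18.8 and against 62.8 and 62.7 (4.05 ± 0.30 and 2.39 ± 0.27), and the laminin receptor subunit gene *Itgb4* was at 209 and 239 (1.32 ± 0.22 and 3.50 ± 0.23). Dystroglycan, *Dag1*, was at 368 and 337 CPM, below myelinating Schwann cells (-1.30 ± 0.10). Of 24 other matrix genes, 15 were higher and 2 lower than in myelinating Schwann cells (median 1.36), and 13 were higher and 6 lower than in SGCs (median 1.12). *Matn2*, matrilin 2, was at 1069 and 1263 CPM, against 72.5 and 86.2 and against 455 and 488 (3.88 ± 0.16 and 1.31 ± 0.14), and *Tnc*, tenascin C, at 25.8 and 23.9 CPM (4.64 ± 0.48 and 1.04 ± 0.32), a call against SGCs that was lost without either non-myelinating replicate (edgeR adjusted p = 0.11 and 0.086). *Sparcl1* was at 823 and 979 CPM, above myelinating Schwann cells (3.19 ± 0.14), and brevican, *Bcan*, at 33.3 and 30.3 CPM against 607 and 628 in SGCs.

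Fibroblast markers moved with the matrix genes. Of 7 such markers outside the gate, 5 were higher and 1 lower than in myelinating Schwann cells, and 6 were higher than in SGCs and 1 not called; their summed level was 4023 and 3671 unscaled CPM, most of it from *Gsn*, gelsolin, and none was at 0. Without the members rich in *Dcn*, 3 were higher and 1 lower than in myelinating Schwann cells, 4 were higher and 1 lower than in SGCs, and the other matrix genes numbered 13 higher and 1 lower (median 0.78), and 11 higher and 6 lower (median 0.71). *Dcn* itself turned from 2.91 to -1.41 on the log2 scale against myelinating Schwann cells.

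Genes of lipid synthesis were low. Of 30 genes of cholesterol and fatty acid synthesis, 29 were lower than in SGCs and 1 was not called (median log2 fold change -1.99), and 18 were lower and 5 higher than in myelinating Schwann cells (median -0.55), the 18 being lower than both. *Hmgcs1*, an early enzyme of the pathway, was at 215 and 284 CPM, against 703 and 801 in myelinating Schwann cells and 1963 and 2078 in SGCs (-1.59 ± 0.15 and -3.01 ± 0.16). *Fdps*, *Sqle* and *Mvd*, further along, had log2 fold changes between -3.29 and -2.61 against SGCs and between -0.63 and -0.55 against myelinating Schwann cells; without replicate 1 of the non-myelinating cells the latter calls of *Fdps* and *Mvd* were lost (-0.40 and -0.46, edgeR adjusted p = 0.12 and 0.15). The master regulator *Srebf2* was lower than both by similar amounts (-0.68 ± 0.10 and -0.67 ± 0.10). *Srebf1*, the regulator of fatty acid synthesis, was higher than in myelinating Schwann cells (1.23 ± 0.15) and at 104 and 116 CPM against 86.4 and 87.3 in SGCs (0.35 ± 0.14, edgeR adjusted p = 0.060). That difference passed with the sample number as a block (edgeR adjusted p = 0.036) and under scaling by total UMIs (0.64, edgeR adjusted p = 0.0011). It also passed with only the 3 glial types in the fit, under the stricter guard against doublets and without the members rich in *Dcn* (edgeR adjusted p = 0.00059, 0.049 and 0.046). The fatty acid desaturase genes *Fads1* and *Fads2* were among the 5 that were higher than in myelinating Schwann cells (0.92 ± 0.10 and 1.29 ± 0.15).

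**Figure D4:**
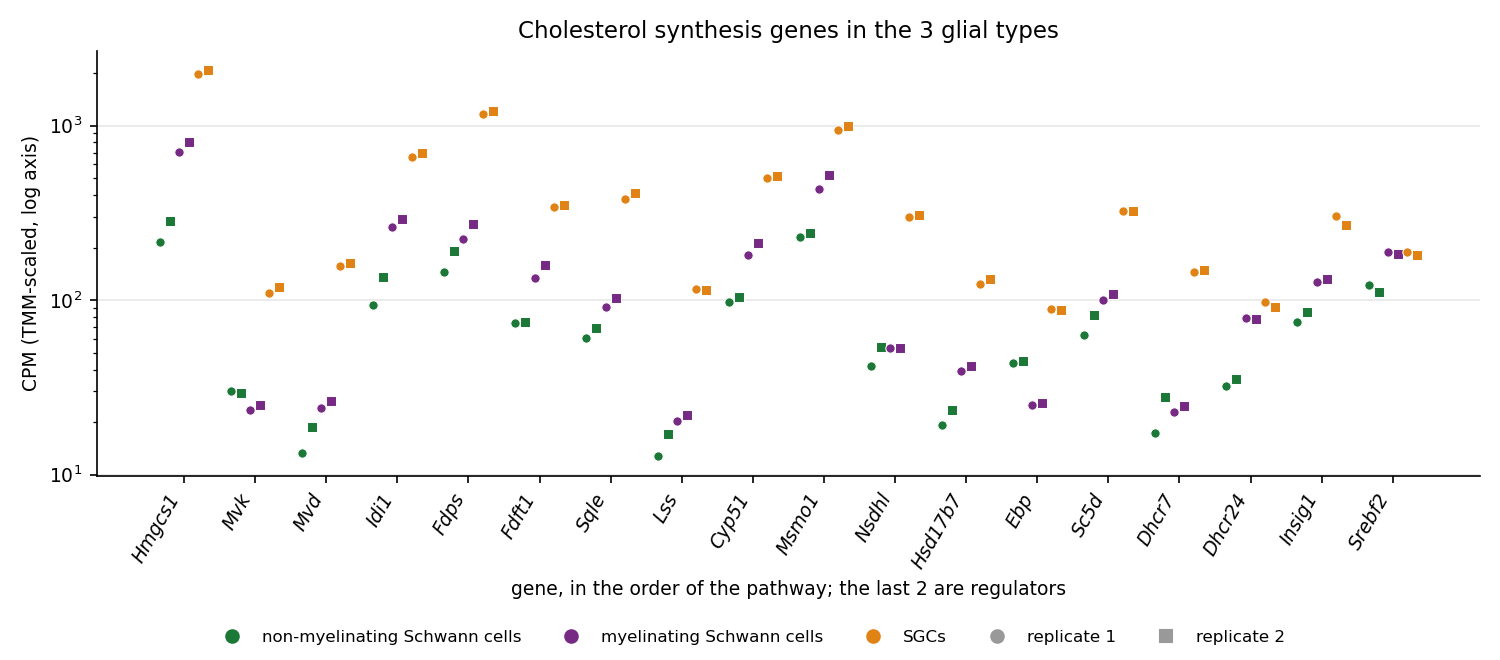
CPM (log axis) of 18 genes of cholesterol synthesis and its regulation in the 3 glial types, in pathway order; each point is 1 sample. SGCs (orange) lie highest for nearly every gene, and non-myelinating Schwann cells (green) lie below myelinating Schwann cells (purple) for most, *Mvk* and *Ebp* being among the exceptions.

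Lipid carriers followed no single order. Of 14 genes tested, 8 were higher and 2 lower than in myelinating Schwann cells, and 4 were higher and 5 lower than in SGCs; without the members rich in *Dcn* these counts were 6 and 2, and 1 and 5, and scaling by total UMIs turned the count against SGCs to 6 higher and 4 lower. *Apoe*, apolipoprotein E, was at 9891 and 10887 CPM, above myelinating Schwann cells (4141 and 4614, 1.25 ± 0.17) and below SGCs (74437 and 72897, -2.83 ± 0.18); free RNA was estimated to give 1889 and 2760.4 unscaled CPM of it, and with that RNA subtracted the fold change over myelinating Schwann cells was 2.34. *Abcg1*, a sterol exporter, was lower than both, at 3.59 and 6.10 CPM against 72.4 and 74.8 and against 91.5 and 86.2.

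Transcription factors of peripheral glia were divided, with 8 of 28 higher and 8 lower than in myelinating Schwann cells and 10 higher and 11 lower than in SGCs (14 and 9 under scaling by total UMIs). Without replicate 2 of the non-myelinating cells the counts were 7 and 4, and 11 and 8. *Zeb2*, which represses inhibitors of Schwann cell differentiation, was higher than both, at 2327 and 2361 CPM (1.34 ± 0.19 and 1.61 ± 0.19). *Pax3*, a neural crest factor of immature Schwann cells, was at 12.4 and 12.5 CPM, against 0.526 and 1.39 in myelinating Schwann cells, with no UMI in SGCs; DESeq2 did not call it against myelinating Schwann cells (3.73, adjusted p = 0.40). *Egr2*, the driver of myelination, was at 38.8 and 15.8 CPM, against 163 and 183 in myelinating Schwann cells (-2.71 ± 0.22) and 9.67 and 9.41 in SGCs (1.47 ± 0.25). Without replicate 1 of the non-myelinating cells these fold changes were -3.48 and 0.69. *Tcf7l2*, an effector of Wnt signalling, was lower than both, at 129 and 122 CPM (-1.02 ± 0.18 and -1.16 ± 0.18).

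Genes of the Notch pathway were mostly lower than in SGCs: 9 of 15 were lower and 1 higher, and 5 were lower and 1 higher than in myelinating Schwann cells. The ligand gene *Jag1* was at 27.4 and 28.7 CPM, against 74.98 and 66.9 and against 214 and 225 (-1.33 ± 0.14 and -2.96 ± 0.14). The target genes *Nrarp* (-0.96 ± 0.24 and -3.85 ± 0.21) and *Hey1* (-0.75 ± 0.18 and -1.60 ± 0.16) were also lower than both, and *Hey2* was lower than in SGCs at 50.2 and 53.4 CPM against 308 and 311. The receptor gene *Notch1* was at 120 and 120 CPM, above myelinating Schwann cells (0.95 ± 0.10) and below SGCs (-0.53 ± 0.09), the latter not called under scaling by total UMIs (-0.24, edgeR adjusted p = 0.054). *Hes1*, a target gene and the exception against SGCs, was at 233 and 135 CPM, against 83.2 and 78.4 there. Without replicate 1 of the non-myelinating cells the call of *Nrarp* against myelinating Schwann cells was lost (-0.80, edgeR adjusted p = 0.056), and with each cell thinned to 1000 UMIs the calls of *Nrarp* (-0.84, edgeR adjusted p = 0.11) and *Hey1* (-0.09, edgeR adjusted p = 0.90) against them were lost.

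Genes known from repair Schwann cells, in uninjured ganglia, were higher in number than lower: 10 of 14 were higher than in myelinating Schwann cells and 4 not called, and 9 were higher and 2 lower than in SGCs. They share *Ngfr*, *Gap43*, *Gfap* and *Tnc* with the lists above. *Shh* was at 0, and *Gdnf*, *Artn*, *Olig1* and *Lif* had too few UMIs to be tested. *Atf3*, a stress-induced transcription factor, was at 533 and 447 CPM, against 307 and 303 in myelinating Schwann cells (0.68 ± 0.20) and 48.1 and 53.7 in SGCs (3.27 ± 0.22); the former call was lost without replicate 1 of the non-myelinating cells (0.53, edgeR adjusted p = 0.12). Immediate early and stress genes numbered 6 higher and 6 lower of 20 against myelinating Schwann cells, and 13 higher and 2 lower against SGCs. *Fos* was at 3012 and 2330 CPM, against 5542 and 6117 and against 979 and 1122 (-1.13 ± 0.15 and 1.35 ± 0.15), and *Hspb1*, a small heat shock protein, was at 104 and 128 CPM (2.54 ± 0.34 and 3.21 ± 0.33). These genes are known to respond to dissociation, whose part in their levels was not tested. Of 12 cell cycle genes, 2 were lower and 10 not called in each comparison, of which the calls against myelinating Schwann cells were lost without either non-myelinating replicate and 1 remained in number against SGCs. These counts were 4 and 7 without a filter on low counts, and 3 and 6 with only the 3 glial types in the fit. The main counts are near the shares of all genes tested that were lower, 16.5% against myelinating Schwann cells and 18.8% against SGCs. *Mki67* was at 4.57 and 3.81 CPM.

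The study turned on endothelin signalling. *Ednrb*, the endothelin B receptor (chromosome 14, 103814625 to 103844402, minus strand), was at 239.7 and 209 CPM in non-myelinating Schwann cells. It was at 228 and 216 in myelinating Schwann cells (log2 fold change 0.01 ± 0.13, edgeR adjusted p = 0.97) and at 1082 and 1102 in SGCs (-2.29 ± 0.13, edgeR adjusted p = 3.6e-10), 4.87-fold more than in non-myelinating cells. With each cell thinned to 1000 UMIs before summing, so that deep cells weigh no more than shallow ones, *Ednrb* was higher than in myelinating Schwann cells (0.57, edgeR adjusted p = 0.00088). The order of levels ran from SGCs through the 2 Schwann cell types, which overlapped, to mural cells (142 and 128), macrophages (128 and 126), endothelial cells (91.6 and 71.1), fibroblasts (53.9 and 55.8) and neurons (44.3 and 62.8), the last 2 of which overlapped as well. In thinned cells a UMI was found in 18.4% and 16.9% of non-myelinating cells, 60.1% and 59.4% of SGCs, 4.23% and 4.14% of macrophages and 2.25% and 2.27% of fibroblasts; before thinning the non-myelinating share was 50.1% and 51.2%. Free RNA was estimated to give 26.9 and 37.1 unscaled CPM in these cells, of 264 and 231 measured. *Ednra* was low, at 7.17 and 6.10 CPM against 512 and 418 in mural cells, and the converting enzyme gene *Ece1* was at 104 and 94.1 (1.67 ± 0.11 and -0.35 ± 0.10). The call of *Ece1* against SGCs was lost under scaling by total UMIs (-0.05, edgeR adjusted p = 0.71) and with each cell thinned to 1000 UMIs (-0.32, edgeR adjusted p = 0.16). It was also lost without replicate 2 of the non-myelinating cells (-0.27). *Edn1*, the ligand, had no UMI in the non-myelinating cells and was at 103 and 121 CPM in endothelial cells. Of the 6 endothelin genes tested, 3 were higher than in myelinating Schwann cells and 3 not called, and 1 was higher and 3 lower than in SGCs.

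Markers of the other types were compared one list at a time. Of 9 myelinating Schwann cell markers outside the gate, 9 were lower than in myelinating Schwann cells, with a summed level of 2749 and 2863 unscaled CPM against 37205 and 39397 there. Of 9 SGC markers, 8 were lower than in SGCs and 1 not called, summing to 12134 and 13340.1 unscaled CPM against 70291 and 70055, mostly *Apoe*. Against the other glial type, 7 of the myelinating Schwann cell markers were higher and 1 lower than in SGCs, and 3 of the SGC markers were higher and 3 lower than in myelinating Schwann cells. The 10 neuron markers summed to 206 and 291 unscaled CPM, most of it *Sncg*, which was lower than in both other glia. Of 6 endothelial markers (9.69 and 17.8 unscaled CPM in sum), 1 was lower than in myelinating Schwann cells and 2 were higher than in SGCs, but neither was called without replicate 2 of the non-myelinating cells. The 6 mural markers summed to 21.9 and 28.2, with *Kcnj8* at 0 in both samples. The 7 macrophage markers summed to 37.3 and 189.8, the difference being mainly *Cd74* at 8.81 and 136 CPM, and *Aif1* was at 0 in replicate 1. Of these 7 markers, 3 were higher than in SGCs, a count that fell to 1 under DESeq2; without replicate 2 of the non-myelinating cells no marker of the list was called higher by edgeR. In 6 genes of blood and other cells the sum was 46.3 and 40.04 unscaled CPM.

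The non-myelinating cells also varied among themselves. Over 4966 genes, the variance of counts between cells was a median of 1.18 times that of counting alone in both samples, and 42 of the 50 genes with the highest excess were the same in both. *Apod* and *Dcn* led (416 and 182 times, and 198 and 155 times), with 97.1% and 89.7% of *Apod* UMIs in the top 5% of cells; the members rich in *Dcn*, described above, held 96.9% and 93.0% of *Dcn* UMIs, and without them *Apod* turned from 2.45 to -0.996 on the log2 scale against myelinating Schwann cells. *Lum*, *Mgp*, *Smoc2*, *Col8a1* and *Ccl11* were likewise held by few cells, with 99.4% and 91.4% of *Lum* UMIs in the top 5%. *Fos* and *Cadm2* were spread more widely. *Fos* (32.8 and 29.7 times) had a median of 14.3 and 9.85 per 10,000 UMIs and a 90th percentile of 93.0 and 72.3. *Cadm2* (15.5 and 16.1 times) had a 10th percentile of 2.35 and 3.07, a median of 21.4 and 24.5 and a 90th percentile of 66.3 and 71.3. *Atf3* (20.1 and 18.0 times), *Ifi27l2a*, an interferon-induced gene (17.6 and 27.7 times), and *Csmd1* (15.2 and 15.2 times) were further genes of high excess. Of these, *Atf3* had a median of 0 in both samples. Across the 483 and 567 cells, which share libraries and differ in depth, log levels of *Fos* and *Atf3* went together (Pearson r = 0.61 and 0.60), as did *Cadm2* with *Scn7a* (0.56 and 0.58) and with *Ntrk3* (0.38 and 0.42), whereas *Scn7a* and *Fabp7* ran opposite (-0.24 and -0.31); these are descriptions across cells, and since the gate set limits on *Scn7a* and *Fabp7*, the values with either gene are conditioned on how the cells were chosen.

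Members with little *Fabp7* and members near its upper limit differed in several genes. In the bins under 20, from 20 to 40 and from 40 to 60 per 10,000 UMIs there were 370, 93 and 20 cells of replicate 1 and 423, 107 and 37 of replicate 2. The lowest bin held 99.5% and 98.2% of the members' *Dcn* UMIs. *Cadm2* was at 3147, 1635 and 1243 unscaled CPM in replicate 1 and at 3533, 1944 and 1205 in replicate 2, falling in value from bin to bin in both. *Ntrk3* was at 584, 323 and 107 and at 691, 288 and 189, and *Gfra3* at 113, 72.0 and 5.92 and at 171, 83.4 and 61.9. *Apoe* ran the other way, at 8813, 14297 and 25395 and at 9645, 13437 and 27652, and so did *Ednrb*, at 237, 328 and 391 and at 185, 275 and 498, and *Bcan*, at 25.1, 57.2 and 113 and at 14.1, 41.0 and 165. *Chl1* (1893, 1655 and 1646, and 1678, 1543 and 1403) and *Sox10* (396, 434 and 290.1, and 351, 352 and 289) varied less. The median depth rose over the bins from 5104.5 to 7036 and from 5558 to 7572 UMIs, and *Fabp7* is a gate gene that itself chose the members, so these values are given with no test, and the part of SGC RNA in the upper bins was not tested.

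**Figure D5:**
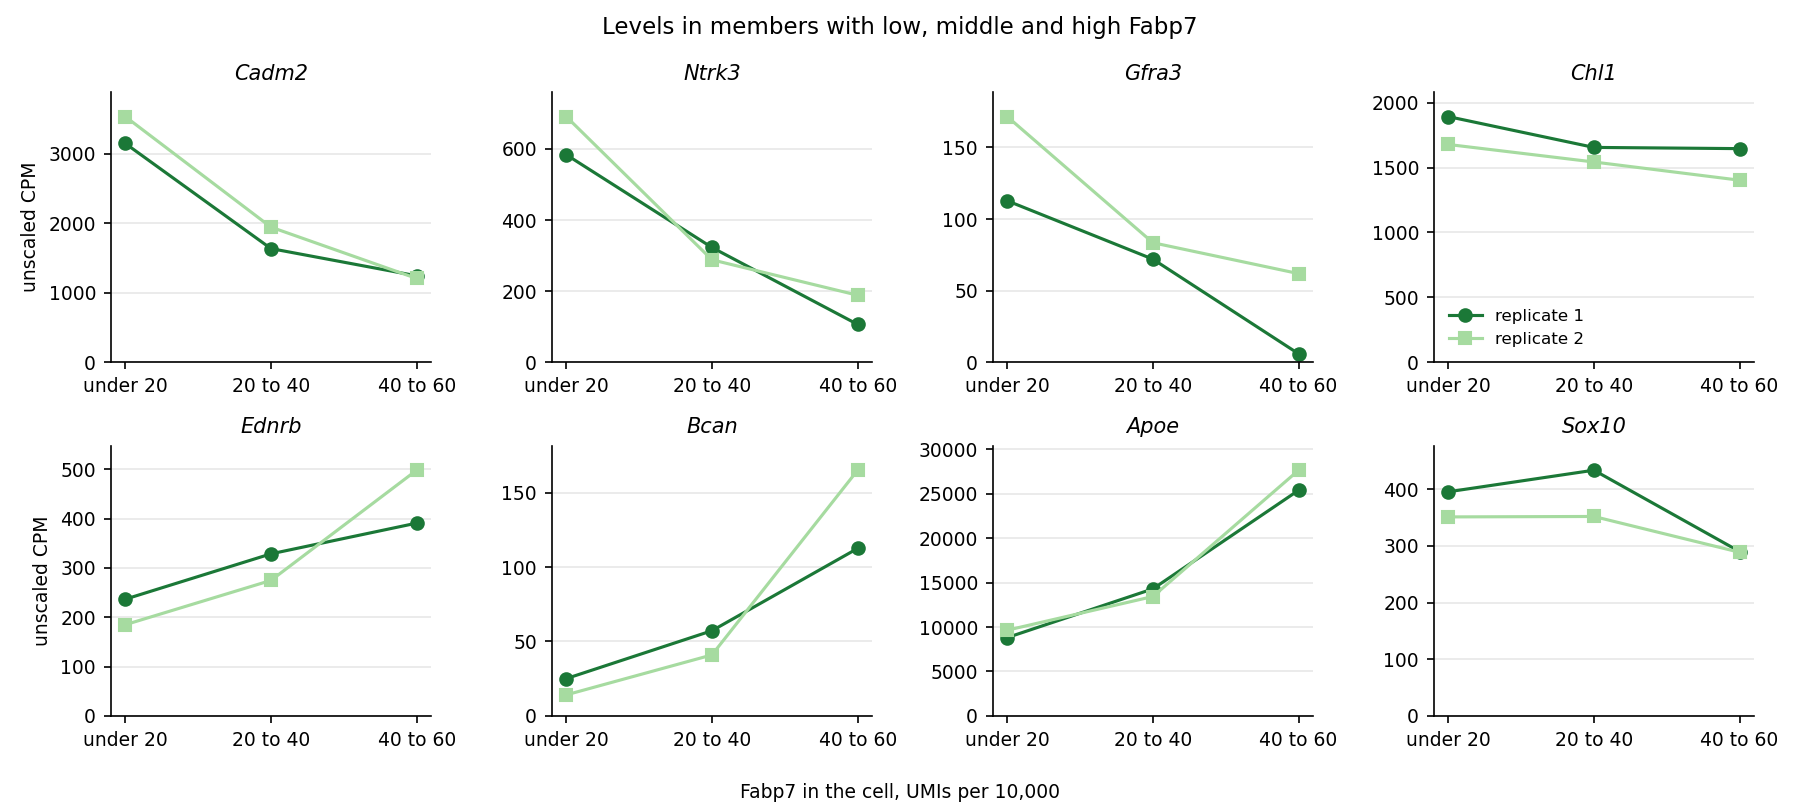
Levels (unscaled CPM, axes from 0) of 8 genes in non-myelinating Schwann cells binned by their *Fabp7* content (UMIs per 10,000), a line for each sample. *Cadm2*, *Ntrk3* and *Gfra3* are highest in the lowest bin, *Ednrb*, *Bcan* and *Apoe* in the highest, in both samples.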

How the data were processed

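The 2 samples were sequenced as separate 10x Genomics 3′ libraries. The authors aligned the reads to mm10 and counted UMIs with Cell Ranger 7.1.0, and deposited raw counts per gene and barcode for every barcode, with no normalization or cell selection; no column of another series was present (0). The deposited counts sum to 119101743 and 128668771 UMIs, over 32285 genes. The release of the annotation is not given in the sources used here. Gene positions were taken from GENCODE release M21 (GRCm38), which held 32158 of the identifiers.

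Barcodes with over 300 genes, at least 1000 UMIs and up to 22% mitochondrial UMIs were set against marker gates for 8 types. Those that met a gate were assigned to its type, and counts were summed per sample and type. Barcodes that met no gate were left out of every profile. The study's methods test single cells by Wilcoxon's test; here the 2 sums of a type were its replicates. A gene was tested if 2 or more profiles held 10 or more of its UMIs, with edgeR 4.0.16 (quasi-likelihood test, TMM scaling, prior count 0.125, R 4.3.3), and the procedure was tested on simulated data. No doublet caller was run; the gates exclude cells with markers of other types, and a stricter guard was an alternative. Each cell was thinned to 1000 UMIs before the share carrying a gene was computed (no member was shallower), and free RNA was estimated from barcodes ranked from 45000 to 90000 by UMIs, scaled by the markers of other types. The genes of the gates were left out of the counts of list genes and of the tests described; their levels are given as a description.

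Profiles with the same sample number come from the same dissociation, which pairs them. Their departures from the average of each type correlated little across genes: the median over all 28 pairings of types was 0.020, with 0.073 between non-myelinating and myelinating Schwann cells and 0.081 between non-myelinating Schwann cells and SGCs.

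The members and the 27 gene lists (371 genes) were chosen with earlier results of these data known. The genes named from a list were those with the largest fold change or the highest level. Others were, among genes outside the lists, the 12 highest and the 8 lowest by their smaller fold change against both other glial types, at 50 CPM or more on the higher side. The 10 highest over all other types by ratio, in the lists or not, and the endothelin genes were named too. Some genes counted in the lists are not reported here by name. Genes given beside these, such as *Nlgn3*, *Nid1* and *Sox10*, were chosen after their values were seen. Alternatives were DESeq2 1.42.0, no filter, scaling by total UMIs, the sample number as a block, the 3 glial types alone, each non-myelinating replicate left out, stricter gates, subtraction of RNA of empty droplets and thinning.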

Additional observations from a re-analysis of the deposited data

How the results depend on the processing

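There were 3080 values (the log2 fold changes of the 119 genes named above in each comparison, under 13 alternatives). Of these, 2958 kept their side of the threshold, 83 lost their call, 25 gained one and 14 changed sign with a call in the main fit or the alternative. Values that changed sign but were called in neither fit count among the 2958, such as *Gfra1* against SGCs (0.11, and -0.84 with each cell thinned to 1000 UMIs). Scaling by total UMIs gave 5067 genes higher and 1963 lower than in SGCs, 2174 higher and 550 lower than both, and *Nid1* at 0.034 against SGCs; it moves all genes together. Thinning each cell to 1000 UMIs, which leaves fewer UMIs, moved 38 of these values by over 1.5 times and gave 1681 higher and 1611 lower than in myelinating Schwann cells, 1454 and 1686 against SGCs, and 757 and 513 against both. With 1 non-myelinating replicate left out, its spread being taken from the other types, genes higher than in SGCs numbered 1803 to 2055 and genes lower than both 659 to 822; *Cd74* against SGCs was -0.54 without replicate 2 and 3.37 without replicate 1. Subtracting RNA of empty droplets takes a small level close to 0 and so moved 69 of these values by over 1.5 times. Against myelinating Schwann cells, for instance, *Igfbp7* went from 4.22 to 14.7 and *Mt3* from -5.96 to -16.3. DESeq2 called 2972 genes higher and 2446 lower than in myelinating Schwann cells, and 3003 and 2666 against SGCs.

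Requiring 5 *Scn7a* UMIs left 930 cells and the stricter guard against doublets 928. Under that guard, and without the members rich in *Dcn* (an alternative chosen after seeing the data), *Dcn* was at -1.82 and -1.41 against myelinating Schwann cells and at -0.52 and -0.11 against SGCs. *Apod* was at -1.14 and -0.996, and at -0.24 and -0.10, and *Lum* at -1.06 and -0.85, and at -2.69 and -2.48. The 21 cells left out held most UMIs of *Dcn*, and both alternatives limit *Dcn* itself, so its fall was set in advance. Before thinning, the mean share of cells with a UMI was 50.6% for *Ednrb* and 32.6% for *Gfra3*, since deeper counts find more cells.

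With the sample number as a block (the pairing), 3013 genes were higher and 2910 lower than in myelinating Schwann cells, and 2855 and 3335 than in SGCs. Of the named genes it changed 2 calls, *Srebf1* against SGCs (0.35, edgeR adjusted p = 0.036) and *Cd74* against myelinating Schwann cells (1.27, edgeR adjusted p = 0.031). For the other changes the cause was not tested. With 2 samples, of an unstated number of mice, p-values measure only the spread between these samples, and genes under about 1 CPM rest on a few UMIs.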
